A study of Mus musculus with 16 samples.

Results

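Smooth muscle cells and myofibroblasts, the fibroblasts that contract healing wounds, share a set of genes for a contractile actin apparatus. Of this set 10 genes were described: the smooth muscle actins Acta2 and Actg2, the actin-binding proteins Tagln (transgelin, SM22-alpha) and Cnn1 (calponin), the myosin regulatory light chain Myl9, the tropomyosins Tpm1 and Tpm2, the actin nucleator Lmod1 (leiomodin), and the transcription regulators Srf and Myocd (myocardin). They were picked by name and found as probe sets whose only gene symbol in the platform annotation was one of these names. All 10 had 1 probe set each, among 19938 genes.

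The study put total RNA of cultured mouse embryonic fibroblasts on 16 microarrays, 1 per plate, with 4 plates in each of 4 groups. Cells that stably expressed a short hairpin RNA against Atf5, a stress-responsive transcription factor, were kept for 8 h with 1 µM MG132, a proteasome inhibitor, or with DMSO as vehicle. Control cells, labelled wild type with a scramble hairpin, had the same treatments over the same 8 h. Both lines thus carried a hairpin construct, and the labels do not say whether the knockdown line is 1 clone or how many hairpins were used. An effect of Atf5 loss and any other difference between the lines therefore cannot be told apart.

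In these genes contraction is built and controlled at several steps. Actin filaments slide on myosin when the regulatory light chain is phosphorylated, and tropomyosins, calponin and transgelin lie along or bind the filament. The transcription factor SRF binds a short DNA element called the CArG box in the promoters of many of these genes. It acts there with myocardin, which is largely restricted to smooth and cardiac muscle, or with the related factors MRTF-A and MRTF-B, which enter the nucleus when free actin monomers are scarce. In fibroblasts TGF-beta and mechanical tension are known to raise Acta2 and Tagln, the standard markers of the myofibroblast state.

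Because SRF is known to bind CArG boxes, the promoter windows of the members were searched for them, and those with a match are shown before the values. The RefSeq table of build GRCm38.p6 held a window of 250 bases before to 50 bases after the annotated start for 7 of the 10 genes. Tagln, Actg2 and Myocd were the 3 without one. Capitals in the sequences mark a CArG box or a match to it with at most 1 G or C in its core. Acta2 lies at chr19:34255324-34255623 on the minus strand, Myl9 at chr2:156775214-156775513 on the plus strand and Srf at chr17:46556113-46556412 on the minus strand.
Acta2: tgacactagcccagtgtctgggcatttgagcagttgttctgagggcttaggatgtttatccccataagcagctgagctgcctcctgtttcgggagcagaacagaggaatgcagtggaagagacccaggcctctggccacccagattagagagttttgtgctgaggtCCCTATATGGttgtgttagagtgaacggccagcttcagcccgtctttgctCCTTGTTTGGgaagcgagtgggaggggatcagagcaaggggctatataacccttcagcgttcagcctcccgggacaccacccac
Myl9: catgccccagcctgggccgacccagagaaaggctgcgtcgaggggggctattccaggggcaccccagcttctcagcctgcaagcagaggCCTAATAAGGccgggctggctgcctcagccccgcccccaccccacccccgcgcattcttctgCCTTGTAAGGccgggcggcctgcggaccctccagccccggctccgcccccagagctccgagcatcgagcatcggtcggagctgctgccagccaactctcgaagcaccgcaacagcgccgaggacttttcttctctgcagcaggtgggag
Srf: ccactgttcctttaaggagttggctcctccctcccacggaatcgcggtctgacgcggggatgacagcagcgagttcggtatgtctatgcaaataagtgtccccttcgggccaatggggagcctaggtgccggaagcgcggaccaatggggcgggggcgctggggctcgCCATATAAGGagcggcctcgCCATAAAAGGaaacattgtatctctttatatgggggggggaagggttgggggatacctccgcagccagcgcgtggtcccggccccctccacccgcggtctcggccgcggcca
Srf held 2 full CArG boxes, CCATATAAGG at -82 to -73 and CCATAAAAGG at -62 to -53 relative to the start. Myl9 held 1 full box, CCTAATAAGG at -161 to -152, and 1 match with a G in its core, CCTTGTAAGG at -99 to -90. Acta2 held 2 matches with 1 G or C in the core, CCCTATATGG at -84 to -75 and CCTTGTTTGG at -34 to -25. A full CArG box was present in 2 of the 7 member windows and in 1.63% of all 32851 windows of this length. With 1 G or C allowed in the core it was present in 3 of the 7 and in 9.98% of all. The windows of Cnn1, Tpm1, Tpm2 and Lmod1 held neither form, which says only that these letters are not in those 300 bases. The element reads as the same class on both strands, so each match was counted once.

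**Figure D1:**
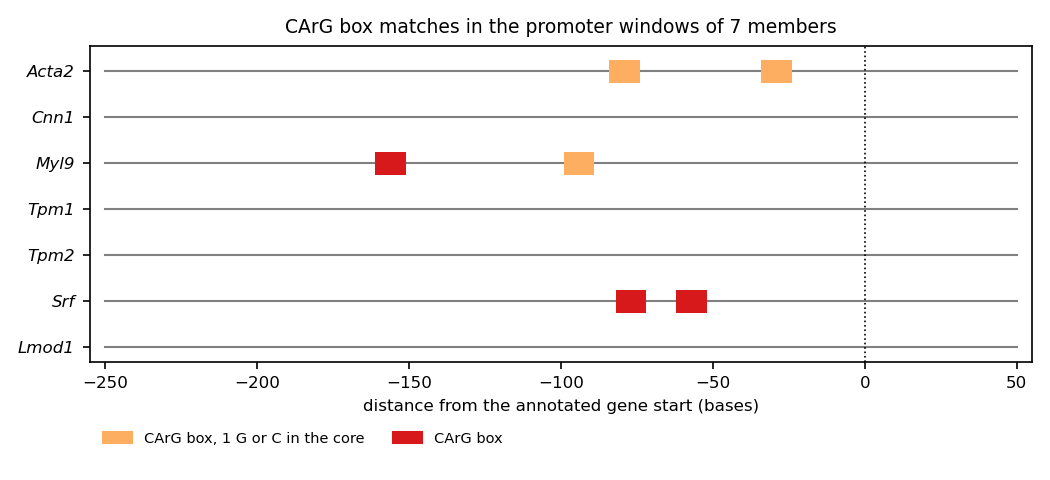
CArG box matches in the 7 promoter windows, drawn by distance in bases from the annotated gene start, with full boxes in red and matches with 1 G or C in the core in orange. Srf and Myl9 carry full boxes, Acta2 carries 2 matches with 1 G or C, and the other 4 windows are empty.

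Values are the log2 probe set intensities that the authors deposited, so a difference of 1 is 2-fold. Array medians lay between 7.71 and 7.82. The hairpin's target was lower in the knockdown line: Atf5 averaged 8.46 ± 0.03 in knockdown cells and 8.77 ± 0.10 in control cells with MG132, and 8.35 ± 0.06 in knockdown cells and 8.57 ± 0.10 in control cells with vehicle (SD, n = 4 each). The log2 difference was -0.31 ± 0.05 with MG132 (limma adjusted p = 0.000148) and -0.22 ± 0.05 with vehicle (limma adjusted p = 0.00321). Of 9 fibroblast markers measured, Vim, S100a4, Col1a1 and Col1a2 read above the 75th percentile of all values (10.07), and Lum read below the 25th (6.34). Fold changes are from limma, fitted to all 16 arrays and all 19938 genes, and ± beside them is the standard error. A gene was called changed where the Benjamini-Hochberg adjusted p over all genes was under 0.05. With 4 against 4 arrays the smallest two-sided exact permutation p is 0.0286.

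Acta2, Tpm1, Tpm2, Tagln, Srf and Myl9 averaged above the 75th percentile of all values, while Lmod1, Cnn1, Actg2 and Myocd averaged below the median of 7.77. The mean of Acta2 was above that of 99.1% of genes and the mean of Tpm1 above that of 98.9%, a range of brightness in which an array can understate a change. The spread over the 16 arrays (SD) was 1.05 for Tagln and 0.64 for Myl9, larger than that of 99.2% and 97.7% of genes. For Acta2 it was 0.06, larger than that of 5.33% of genes. The members named together as contractile markers thus ranged from some of the most to some of the least variable genes on these arrays.

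Inside the groups the arrays differed along a main gradient, the first principal component of the deviations from the group means over all genes, which held 37.8% of the variance inside the groups. Lmod1, Myocd and Actg2, 3 of the members below the median of all values, followed it over the 16 arrays. Each had a higher value on arrays low on the gradient. For Lmod1 Pearson's r was -0.86 and Spearman's rho -0.76, for Myocd -0.80 and -0.80, and for Actg2 -0.77 and -0.75. Permuting arrays within groups gave two-sided permutation p-values, adjusted over the 10 members, of 0.0129 for r in all 3 genes and of 0.0196, 0.0175 and 0.0175 for rho. Unadjusted, these were 0.00208, 0.00331 and 0.00479 for r and 0.00589, 0.00351 and 0.00261 for rho. Tpm1 went the other way (r 0.65 with permutation p = 0.00517, adjusted 0.0129, and rho 0.62 with permutation p = 0.00989, adjusted 0.0247). Without the 2 arrays farthest from the median of the gradient, r was -0.72 for Lmod1, -0.79 for Myocd, -0.71 for Actg2 and 0.56 for Tpm1. For the other 6 members r lay between -0.54 and 0.49 and no adjusted permutation p passed (0.117 to 0.757). Cnn1, also below the median of all values, was among these 6 (r -0.47, adjusted permutation p = 0.117). These values hold inside the groups, whereas the comparisons set group means against each other. The gradient was computed from all genes, the members included, and how many of all genes follow it was not counted. Whether the members follow it more often than other genes was not tested.

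**Figure D2:**
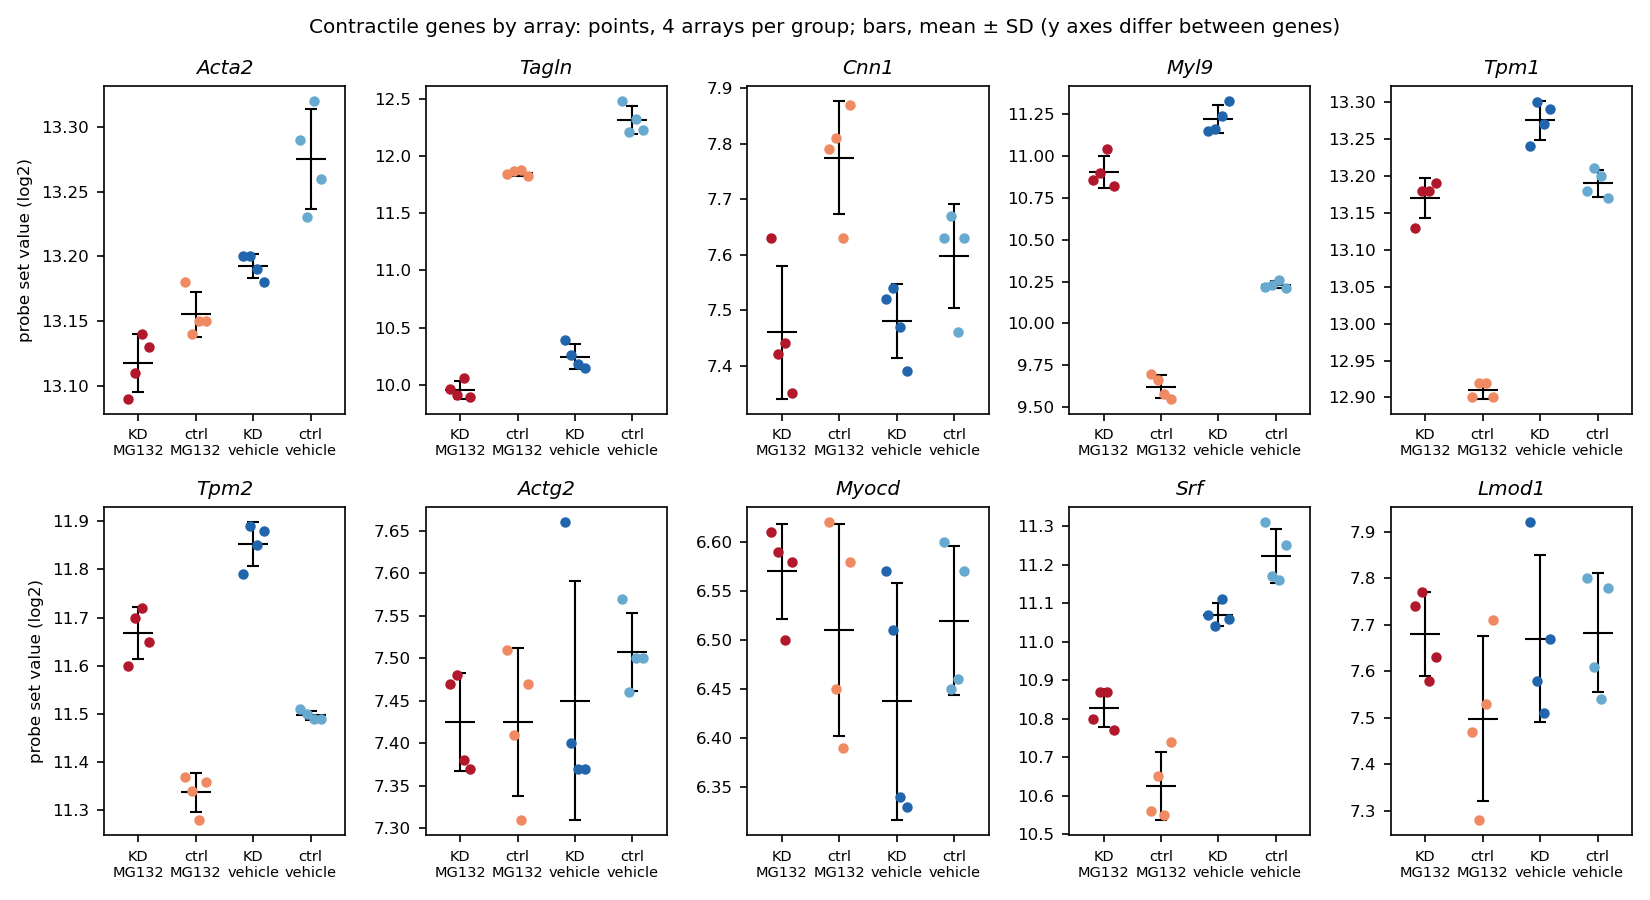
Log2 probe set values of the 10 members on every array, by group, with the mean and SD of 4 arrays as bars and separate y axes. Tagln falls into a low pair of knockdown groups between 9.89 and 10.39 and a high pair of control groups between 11.82 and 12.48, Myl9 does the reverse, and the 4 groups of Actg2, Myocd and Lmod1 overlap.

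The first comparison set the Atf5-knockdown line against the control line with vehicle. Tagln was 4.18-fold lower in the knockdown line while Myl9 was 1.99-fold higher. Tpm2 was 1.28-fold higher. Acta2, Tpm1 and Srf differed by 1.11-fold or less, and Cnn1, Actg2, Myocd and Lmod1 were not called. In all 3 members were higher and 3 lower. Over all genes 39.4% were called, 21.5% higher and 17.9% lower. The median log2 difference was -0.07 over the members and -0.01 over all genes, and the called members were split evenly between the directions. Arrays did not overlap between the lines for 6 of the members and for 38.7% of all genes.

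Tagln read 10.39, 10.26, 10.18 and 10.15 on the knockdown arrays with vehicle, against 12.48, 12.21, 12.32 and 12.23 on the control arrays. Every knockdown array was below every control array, with a gap many times the spread inside either group (log2 fold change -2.06 ± 0.06, limma adjusted p = 3.17e-14, exact permutation p = 0.0286). Transgelin is an actin-bundling protein and one of the earliest markers of smooth muscle differentiation. Its fall was the 61st lowest log2 fold change of all genes. In bulk RNA, fewer cells that express a gene and less of its RNA per cell cannot be told apart.

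Myl9 stood on the other side. It read 11.15, 11.16, 11.24 and 11.33 in knockdown cells with vehicle and 10.22, 10.23, 10.26 and 10.21 in control cells. The groups did not overlap (log2 fold change 0.99 ± 0.05, limma adjusted p = 5.27e-11, exact permutation p = 0.0286). Myl9 encodes the regulatory light chain whose phosphorylation starts contraction in smooth muscle and non-muscle cells. Tpm2, beta-tropomyosin, read 11.79 to 11.89 in knockdown cells and 11.49 to 11.51 in control cells, again with no overlap (0.35 ± 0.03, limma adjusted p = 2.28e-07).

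Acta2, the defining myofibroblast marker, read 13.20, 13.20, 13.19 and 13.18 in knockdown cells and 13.29, 13.23, 13.32 and 13.26 in control cells with vehicle. The arrays did not overlap, yet the difference was only -0.08 ± 0.03 (limma adjusted p = 0.03), and the call was lost in 10 of 26 alternative settings, with a highest adjusted p of 0.217. Leaving out control vehicle 1 or 3, or knockdown vehicle 2, 3 or 4, was enough (limma adjusted p 0.0518 to 0.105). Srf read 11.04 to 11.11 in knockdown and 11.16 to 11.31 in control cells (-0.15 ± 0.05, limma adjusted p = 0.0132), a call that missed the threshold without control vehicle array 1 (-0.12, limma adjusted p = 0.0516) and without a second set of 4 arrays low on the gradient, with the fifth lowest in place of the fourth (-0.095, limma adjusted p = 0.145). Tpm1 read 13.24 to 13.30 in knockdown and 13.17 to 13.21 in control cells (0.08 ± 0.03, limma adjusted p = 0.0218), and 5 of 26 settings ended that call. Leaving out control vehicle 4, knockdown vehicle 2 or knockdown vehicle 4 was enough (limma adjusted p 0.0563 to 0.0678). Cnn1 differed by -0.12 ± 0.06 (limma adjusted p = 0.179), Myocd by -0.08 ± 0.06, Actg2 by -0.06 ± 0.06 and Lmod1 by -0.01 ± 0.09, with overlapping arrays in all 4 genes.

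With MG132 the same lines were compared on other arrays, so these values are separate measurements. Tagln was 3.73-fold lower and Myl9 2.43-fold higher in the knockdown line. Tpm1, Tpm2 and Srf were higher and Cnn1 was lower. In all 4 members were higher and 2 lower, and 4 were not called. Over all genes 38.1% were called, 17.7% higher and 20.3% lower, and arrays did not overlap for 34.7% of all genes and for 5 members. The median difference was 0.12 over the members and -0.00 over all genes.

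Tagln read 9.96, 9.91, 10.06 and 9.89 in knockdown cells with MG132 and 11.84, 11.87, 11.88 and 11.82 in control cells with MG132 (-1.90 ± 0.06, limma adjusted p = 1.40e-13). Myl9 read 10.86, 10.90, 11.04 and 10.82 in knockdown cells and 9.70, 9.66, 9.58 and 9.55 in control cells (1.28 ± 0.05, limma adjusted p = 2.12e-12). In both genes the lines stayed fully apart. Both differences kept their sign and passed the threshold in all 26 alternative settings.

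Tpm1, whose splice forms serve muscle and non-muscle cells, read 13.13 to 13.19 in knockdown and 12.90 to 12.92 in control cells (0.26 ± 0.03, limma adjusted p = 7.57e-07). The splice forms are not separated by its single probe set. Tpm2 read 11.60 to 11.72 in knockdown and 11.28 to 11.37 in control cells (0.33 ± 0.03, limma adjusted p = 6.32e-07). For both tropomyosins the 4 knockdown arrays lay above the 4 control arrays.

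Cnn1 read 7.63, 7.42, 7.44 and 7.35 in knockdown cells and 7.79, 7.81, 7.63 and 7.87 in control cells with MG132. The highest knockdown array equalled the lowest control array, and the difference passed in limma (-0.31 ± 0.06, limma adjusted p = 0.000704), with an exact permutation p of 0.0571. Calponin binds actin and restrains the myosin motor. Srf read 10.80, 10.87, 10.87 and 10.77 in knockdown cells and 10.56, 10.65, 10.55 and 10.74 in control cells (0.20 ± 0.05, limma adjusted p = 0.00177). This is the direction opposite to that found with vehicle. Lmod1 (0.18 ± 0.09), Myocd (0.06 ± 0.06), Acta2 (-0.04 ± 0.03) and Actg2 (0.00 ± 0.06) were not called (limma adjusted p 0.15 to 1). Lmod1 did pass without control MG132 array 4, the array with the highest Lmod1 of its group (0.25, limma adjusted p = 0.0388), with array weights (0.22, limma adjusted p = 0.0398) and without either set of 4 arrays low on the gradient (limma adjusted p 0.0335 and 0.00649).

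**Figure D3:**
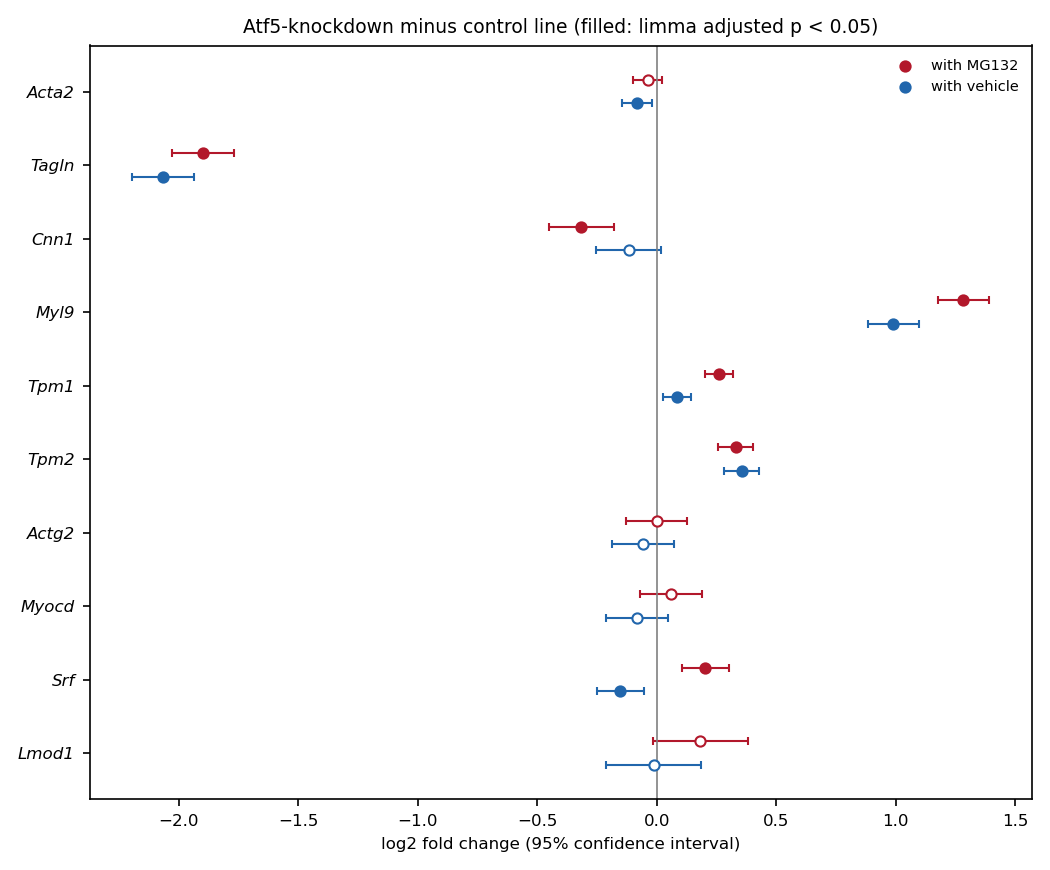
Log2 fold change of the knockdown line over the control line for each member, with MG132 in red and with vehicle in blue. Bars are 95% confidence intervals and filled points passed the threshold. Tagln lies near -2, Myl9 near 1, and Srf changes side between the treatments.

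MG132 was compared with vehicle in each line. In control cells Acta2, Tagln, Myl9, Tpm1, Tpm2 and Srf fell and Cnn1 rose, while Actg2 (-0.08 ± 0.06), Myocd (-0.01 ± 0.06) and Lmod1 (-0.18 ± 0.09) were not called. Lmod1 passed in 4 alternatives: without control MG132 array 4 (-0.26, limma adjusted p = 0.0416), after a second quantile normalization (-0.25, limma adjusted p = 0.0359), after median centring (-0.24, limma adjusted p = 0.0367) and without the 4 arrays lowest on the gradient (-0.22, limma adjusted p = 0.0429). Actg2 passed after the second quantile normalization (-0.15, limma adjusted p = 0.0376). Over all genes 35.8% were called, 16.8% higher and 19.0% lower. The median change was -0.17 over the members and 0.03 over all genes. In Atf5-knockdown cells the 6 that fell were again Acta2, Tagln, Myl9, Tpm1, Tpm2 and Srf, and none of the 10 rose, where 40.7% of all genes were called, 16.4% higher and 24.3% lower. The median change there was -0.09 over the members and 0.03 over all genes. With each array centred on its median these 6 genes still passed as lower in both lines.

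The largest falls in control cells were those of Myl9 and Srf. Myl9 read 9.70, 9.66, 9.58 and 9.55 with MG132 and 10.22, 10.23, 10.26 and 10.21 with vehicle (-0.61 ± 0.05, limma adjusted p = 4.95e-08), so that on the linear scale it fell by 34.4%. Srf read 10.56, 10.65, 10.55 and 10.74 with MG132 and 11.31, 11.17, 11.16 and 11.25 with vehicle (-0.60 ± 0.05, limma adjusted p = 1.86e-08). For both genes all MG132 arrays lay below all vehicle arrays (exact permutation p = 0.0286).

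Tagln in control cells read 11.82 to 11.88 with MG132 and 12.21 to 12.48 with vehicle (-0.46 ± 0.06, limma adjusted p = 1.03e-05). Tpm1 read 12.90 to 12.92 with MG132 and 13.17 to 13.21 with vehicle (-0.28 ± 0.03, limma adjusted p = 3.89e-07). Tpm2 fell by 0.16 on the log2 scale (SE 0.03) and Acta2 by 0.12 (SE 0.03). The arrays of these 4 genes did not overlap between treatments. Arrays did not overlap for 32.9% of all genes in this comparison and for 6 of the members.

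Cnn1 was the one member called higher with MG132 in control cells, and that call is weak. It read 7.79, 7.81, 7.63 and 7.87 with MG132 and 7.63, 7.67, 7.46 and 7.63 with vehicle, so the groups overlapped (0.18 ± 0.06, limma adjusted p = 0.0407, exact permutation p = 0.114). The adjusted p over the alternatives ran between 0.0109 and 0.175 and the call was lost in 12 of 26, among them a second quantile normalization and centring on array medians. Leaving out control vehicle 1, 3 or 4, knockdown vehicle 3 or any of the 4 control MG132 arrays except array 3 also ended it. The call held in the other 14 alternatives, among them a block for the replicate numbers.

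In knockdown cells Myl9 read 10.86, 10.90, 11.04 and 10.82 with MG132 and 11.15, 11.16, 11.24 and 11.33 with vehicle (-0.32 ± 0.05, limma adjusted p = 7.34e-05). Tagln read 9.96, 9.91, 10.06 and 9.89 with MG132 and 10.39, 10.26, 10.18 and 10.15 with vehicle (-0.29 ± 0.06, limma adjusted p = 0.000852). Srf read 10.80, 10.87, 10.87 and 10.77 with MG132 and 11.07, 11.04, 11.11 and 11.06 with vehicle (-0.24 ± 0.05, limma adjusted p = 0.000354). In each of the 3 genes the MG132 arrays lay below the vehicle arrays.

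Tpm2 fell by 0.18 on the log2 scale in knockdown cells (SE 0.03, limma adjusted p = 0.000334) and Tpm1 by 0.10 (SE 0.03, limma adjusted p = 0.00581). Acta2 read 13.09 to 13.14 with MG132 and 13.18 to 13.20 with vehicle in knockdown cells. Its fall of 0.07 (SE 0.03, limma adjusted p = 0.0471) lost the call in 15 of 26 alternatives, with an adjusted p up to 0.125, so in this line the change of Acta2 rests on the settings. Leaving out a single array ended it for 11 of the 16 arrays, namely control vehicle 4, control MG132 1, 2 and 3, knockdown MG132 1, 2 and 4, and all 4 knockdown vehicle arrays. Arrays did not overlap for 6 of the 10 members, against 38.5% of all genes. Myocd changed by 0.13 ± 0.06 (limma adjusted p = 0.1), Actg2 by -0.03 ± 0.06, Cnn1 by -0.02 ± 0.06 and Lmod1 by 0.01 ± 0.09, with overlapping arrays. Without knockdown vehicle array 1, Myocd passed (0.18, limma adjusted p = 0.0277), and it also passed with array weights (0.16, limma adjusted p = 0.0215), with the replicate block (0.13, limma adjusted p = 0.0387) and without the second set of 4 arrays (0.18, limma adjusted p = 0.0224). Without that same array 1, so did the line difference of Actg2 with vehicle (-0.13, limma adjusted p = 0.0429).

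**Figure D4:**
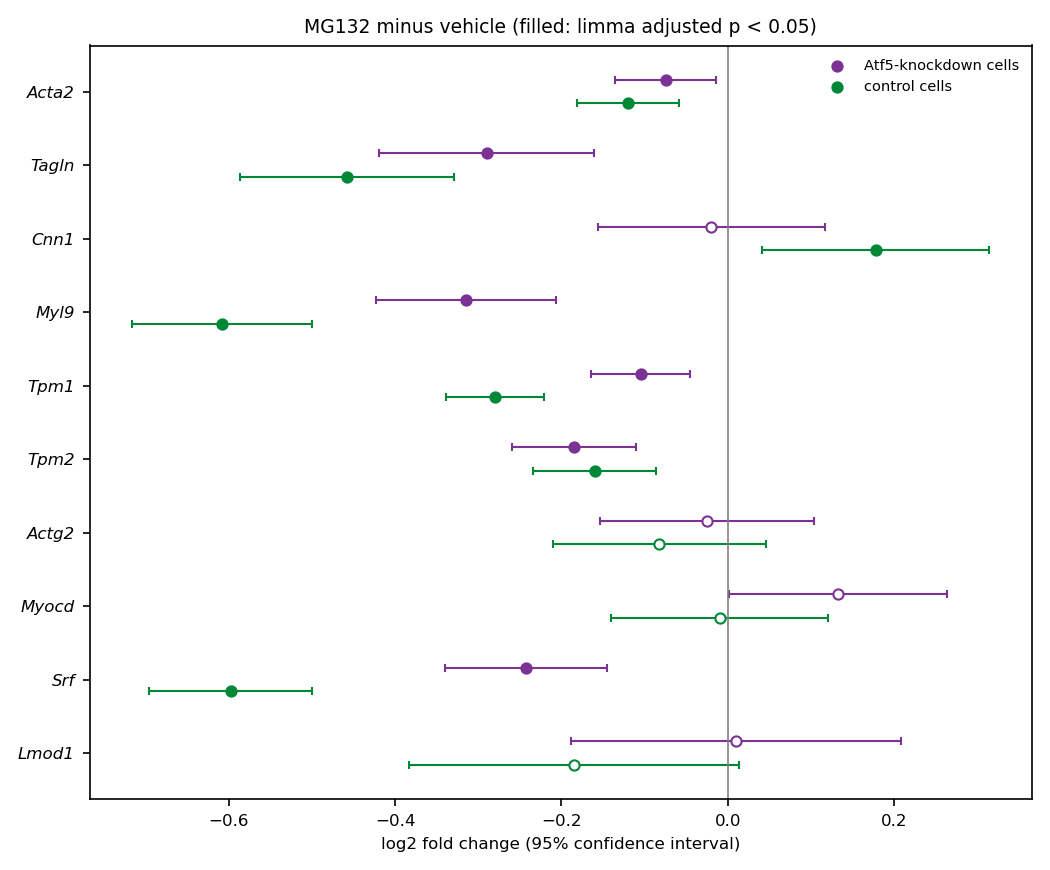
Log2 fold change of MG132 over vehicle for each member, in Atf5-knockdown cells (purple) and control cells (green), with 95% confidence intervals and filled points for those past the threshold. The filled points lie left of 0 in both lines except Cnn1 in control cells, and Myl9, Tpm1 and Srf lie further left in control cells.

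Whether the lines responded differently was tested as the difference of the MG132 responses, knockdown minus control. It passed for 3 of the 10 members, all positive, and for 14.6% of all genes, 4.45% positive and 10.1% negative. Srf had a difference of 0.35 ± 0.07 (limma adjusted p = 0.00148), from responses of -0.24 in knockdown and -0.60 in control cells. Tpm1 had a difference of 0.17 ± 0.04 (limma adjusted p = 0.00651), from -0.10 and -0.28 in the same order. Myl9 had 0.29 ± 0.07 (limma adjusted p = 0.0113), from -0.32 and -0.61. The Srf and Tpm1 calls held in all 25 alternatives run for this comparison. The Myl9 call was lost when 4 arrays were left out that lay low on the gradient inside the groups (0.25, limma adjusted p = 0.0651). It was also lost with the fifth lowest array left out in place of the fourth (0.26, limma adjusted p = 0.0638). For Tagln the difference was 0.17 ± 0.09 (limma adjusted p = 0.234, 95% confidence interval -0.01 to 0.35). For Tpm2 it was -0.03 ± 0.05 (95% confidence interval -0.13 to 0.08). Each line comparison shares arrays with the MG132 comparisons, so the 5 contrasts are not independent of each other.

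The order of the 4 groups differed between genes. Tagln was lowest in knockdown MG132, then knockdown vehicle, control MG132 and control vehicle, with no overlap between neighbours. Myl9 ran from control MG132 through control vehicle and knockdown MG132 to knockdown vehicle, also with no overlap, and Tpm2 had that same order with no overlap. Tpm1 was lowest in control MG132 and highest in knockdown vehicle, and its middle groups, knockdown MG132 at 13.13 to 13.19 and control vehicle at 13.17 to 13.21, overlapped. Srf was lowest in control MG132, then knockdown MG132, knockdown vehicle and control vehicle, with no overlap between neighbours. Acta2 was lowest in knockdown MG132 and highest in control vehicle, and the knockdown and control MG132 groups met at 13.14, as did control MG132 and knockdown vehicle at 13.18. For Cnn1 the order was knockdown MG132, knockdown vehicle, control vehicle and control MG132, and each group overlapped its neighbour. For Actg2, Myocd and Lmod1 neighbouring groups overlapped throughout.

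The nearest patterns were found by the root mean square difference of the 4 group means, each gene centred on its own mean. For Tagln the 5 nearest genes were Lmbr1 (0.02), C1qtnf12 (0.07), Ikzf2 (0.08), St3gal6 (0.10) and G6pc3 (0.12). For Acta2 they were Ctnnd1 (0.00622), Zfp316 (0.0081), Dennd4b (0.00817), Myl1 (0.0091) and Tln1 (0.0099), and the group means of Acta2 themselves spanned little. For Cnn1 they were Gpr108 (0.00207), Cdo1 (0.0107), Stra6 (0.0107), Chd6 (0.0114) and Kdm4b (0.0116). None of these 15 genes is a member, and the nearest pair among the members was Acta2 and Actg2 (0.03). The group means of Actg2 also spanned little (7.425 to 7.51), and this measure places such flat genes close to each other.

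Several members have paralogues on the array, which were named for that reason after their values had been seen. Tagln2, a transgelin found widely outside muscle, was higher in the knockdown line, by 0.50 ± 0.04 with MG132 (limma adjusted p = 3.1e-08) and by 0.28 ± 0.04 with vehicle (limma adjusted p = 2.25e-05), while Tagln was lower in both. Tpm4, a non-muscle tropomyosin, was higher like Tpm1 and Tpm2, by 0.26 ± 0.03 with MG132 (limma adjusted p = 1.17e-05) and by 0.14 ± 0.03 with vehicle (limma adjusted p = 0.00439). For Tpm3 the line differences were 0.07 ± 0.03 and 0.05 ± 0.03, and neither passed. The line differences of the calponin Cnn3 and of Myl6, an essential light chain, lay between -0.06 and -0.02 and did not pass. Cnn2 was higher with MG132 (0.15 ± 0.05, limma adjusted p = 0.0154) and differed by -0.02 ± 0.05 with vehicle.

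Among the other actins Acta1, Actc1 and Actb were called in none of the 5 comparisons (limma adjusted p from 0.14 upward). Actb, the cytoplasmic beta-actin, read between 14.23 and 14.29 in the group means and is near the top of the scale of these arrays. Actin genes are closely alike in sequence, and cross-hybridisation between their probe sets was not tested.

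**Figure D5:**
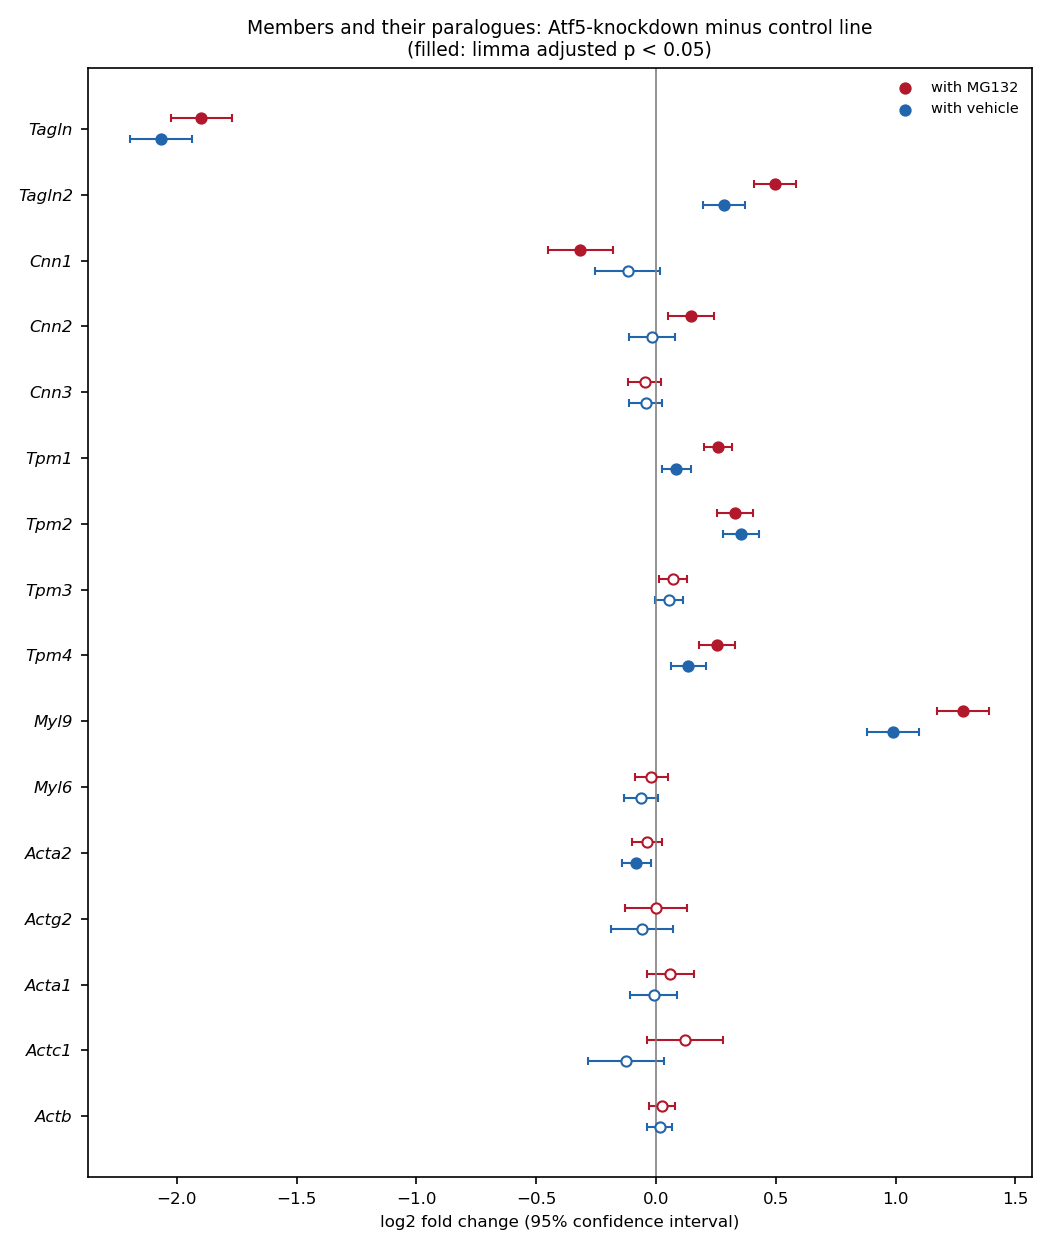
Log2 fold change of the knockdown line over the control line for members and their paralogues, with MG132 in red and with vehicle in blue, 95% confidence intervals, and filled points past the threshold. Tagln and Tagln2 lie on opposite sides of 0, Tpm1, Tpm2 and Tpm4 lie to the right, and the 5 actins lie near 0.

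The partners of these proteins in the actomyosin system were read from a list of other cytoskeletal genes, 30 of them measured. With vehicle 4 were higher and 13 lower in the knockdown line (13.3% and 43.3%, against 21.5% and 17.9% of all genes). Csrp2, a LIM protein that works with SRF in smooth muscle, had the smallest p, with -0.73 ± 0.03 (limma adjusted p = 1.02e-11). Vcl, the focal adhesion protein vinculin, was lower (-0.55 ± 0.03), as was Smtn, smoothelin, a marker of contractile smooth muscle (-0.56 ± 0.04). The non-muscle myosin Myh10 was lower too (-0.38 ± 0.04). With MG132 7 were higher and 9 lower in the knockdown line, with Csrp2 at -0.83 ± 0.03, Myh10 at -0.45 ± 0.04 and Smtn at -0.44 ± 0.04. The list's median log2 difference lay between -0.06 and 0.12 in the 5 comparisons, where that of all genes lay between -0.01 and 0.03.

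MG132 lowered 12 and raised 1 of these 30 partner genes in control cells, and it lowered 7 and raised 6 in knockdown cells. Of all genes 19.0% were lower and 16.8% higher in control cells, where the list had 40.0% and 3.33%. In knockdown cells the list's 23.3% lower and 20.0% higher stood beside 24.3% and 16.4% of all genes. In control cells Cnn2 (-0.53 ± 0.05), Tagln2 (-0.35 ± 0.04), Cald1, the actin-binding caldesmon (-0.32 ± 0.03), and Vcl (-0.28 ± 0.03) had the smallest p. In knockdown cells Cnn2 (-0.36 ± 0.05) and Myl6 (-0.18 ± 0.03) fell, while the LIM proteins Pdlim7 (0.34 ± 0.04) and Fhl2 (0.24 ± 0.03) rose. The difference of the responses passed for 7, all positive (23.3%, against 4.45% of all genes). Cald1 (0.27 ± 0.05), Vcl (0.26 ± 0.05), Sorbs3 (0.32 ± 0.07) and Fhl2 (0.23 ± 0.05) were the 4 with the smallest p.

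Of 17 cofactors and antagonists of SRF, 6 were higher and 7 lower in the knockdown line in either treatment (35.3% and 41.2%). The shares of all genes were 17.7% and 20.3% with MG132, and 21.5% and 17.9% with vehicle. For the MG132 responses of this and the next lists, the shares of all genes were 16.4% higher and 24.3% lower in knockdown cells and 16.8% and 19.0% in control cells, and for the difference of the responses 4.45% positive and 10.1% negative. Gata6, a transcription factor of the vascular smooth muscle state, was lower (-1.15 ± 0.03 with MG132 and -1.43 ± 0.03 with vehicle). Mrtfa, which encodes MRTF-A, was higher with MG132 (0.14 ± 0.04, limma adjusted p = 0.0108) and with vehicle (0.33 ± 0.04, limma adjusted p = 2.06e-06). Mef2c was lower (-0.68 ± 0.05 with MG132 and -0.41 ± 0.05 with vehicle). MG132 raised Klf4, a repressor of smooth muscle genes, by 0.77 ± 0.05 in knockdown and 0.62 ± 0.05 in control cells. It lowered Elk3, a ternary complex factor that competes with myocardin factors for SRF (-0.65 ± 0.03 in knockdown and -0.61 ± 0.03 in control cells). In all MG132 raised 5 and lowered 5 of the 17 in knockdown cells and raised 6 and lowered 6 in control cells. The difference of the responses passed for 3 positive and 3 negative genes, with Hdac4, a repressor of MEF2, at 0.56 ± 0.08. The list's medians lay between -0.08 and 0.06.

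Signals upstream were read from 24 genes of the TGF-beta pathway and 20 of RhoA and light chain control. Tgfb3, a TGF-beta ligand, was lower in the knockdown line (-1.01 ± 0.05 with MG132 and -1.50 ± 0.05 with vehicle). Ltbp2, a latent TGF-beta binding protein family member, was higher (1.63 ± 0.07 and 1.48 ± 0.07 in the same order), as was the integrin Itgb5 (0.62 ± 0.04 and 0.60 ± 0.04). Of the 24 genes 10 were higher and 7 lower with MG132 (41.7% and 29.2%, beside 17.7% and 20.3% of all genes), and 7 were higher and 10 lower with vehicle (29.2% and 41.7%, beside 21.5% and 17.9%). MG132 lowered Tgfb3 (-0.73 ± 0.05 in knockdown and -1.22 ± 0.05 in control cells) and the receptor Tgfbr2 (-0.43 ± 0.03 and -0.65 ± 0.03). Counts with MG132 were 6 higher and 10 lower in knockdown cells and 6 higher and 12 lower in control cells, and the difference of the responses passed for 6 positive and 4 negative genes. The list's medians lay between -0.12 and 0.02.

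Of the RhoA list, which also holds the myosin phosphatase subunits, 6 were higher and 2 lower in the knockdown line with MG132 (30.0% and 10.0%, beside 17.7% and 20.3% of all genes). With vehicle 6 were higher and 4 lower (30.0% and 20.0%, beside 21.5% and 17.9%). Arhgef2, a RhoA activator, was higher by 0.83 ± 0.03 with MG132 and 0.84 ± 0.03 with vehicle, and Limk1, a kinase that stabilises actin filaments, by 0.42 ± 0.04 and 0.59 ± 0.04. Rhob went the other way with vehicle (-0.63 ± 0.05). MG132 raised 7 and lowered 5 of the 20 in knockdown cells, and it raised 6 and lowered 7 in control cells. Arhgap18 had the smallest p in both lines (-1.40 ± 0.07 in knockdown and -1.18 ± 0.07 in control cells). The difference of the responses passed for 2, Rnd3 (0.82 ± 0.06), and Rhoc (0.14 ± 0.04). The list's medians lay between 0.01 and 0.03.

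Of 20 myofibroblast matrix genes and TGF-beta targets, 7 were higher and 6 lower in the knockdown line with MG132 (35.0% and 30.0%, beside 17.7% and 20.3% of all genes). With vehicle 3 were higher and 10 lower (15% and 50%, beside 21.5% and 17.9%). Tnc, the matrix glycoprotein tenascin-C, was lower (-1.87 ± 0.05 with MG132 and -2.27 ± 0.05 with vehicle), as was Cdh2, N-cadherin (-0.79 ± 0.03 in both). Cdh11, the cadherin of myofibroblast junctions, was higher by 1.25 ± 0.07 with MG132 and 1.10 ± 0.07 with vehicle. MG132 raised 4 and lowered 8 of the 20 in knockdown cells, and raised 2 and lowered 12 in control cells. Thbs1 had the smallest p with MG132 in both lines (-0.87 ± 0.03 in knockdown and -1.305 ± 0.03 in control cells). Ccn2 was lower with MG132 in control cells (-0.92 ± 0.04) and lower in the knockdown line with vehicle (-1.12 ± 0.04). Inhba, a TGF-beta family ligand subunit, fell by 1.03 on the log2 scale (SE 0.03) in control cells, and its difference of the responses was 0.58 ± 0.05. That difference passed for 7 positive and 1 negative gene of the 20. The list's medians lay between -0.19 and 0.09.

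Of 13 serum-induced SRF targets, 5 were higher and 4 lower in the knockdown line with MG132 (38.5% and 30.8%, beside 17.7% and 20.3% of all genes). With vehicle 6 were higher and 4 lower (46.2% and 30.8%, beside 21.5% and 17.9%). Egr1, an immediate early transcription factor, was higher by 0.34 ± 0.05 with MG132 and by 1.17 ± 0.05 with vehicle, and MG132 lowered it (-2.26 ± 0.05 in knockdown and -1.42 ± 0.05 in control cells). Dusp1, a MAP kinase phosphatase, was lower with vehicle (-0.63 ± 0.04), as were Fosb (-0.75 ± 0.06) and Nr4a1 (-0.56 ± 0.04). MG132 raised 3 and lowered 4 in knockdown cells and raised 2 and lowered 6 in control cells. Ier3 rose by 1.19 ± 0.05 in knockdown and 0.66 ± 0.05 in control cells, a difference that passed (0.54 ± 0.07, limma adjusted p = 4.77e-05). The difference of the responses passed for 7 positive and 2 negative of the 13 (53.8% and 15.4%, beside 4.45% and 10.1% of all genes). The list's medians lay between -0.01 and 0.19.

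Markers of other cell types were read beside these genes. The mean level of the 9 fibroblast markers per array ran from 9.84 to 9.93 in knockdown and 9.66 to 9.68 in control cells with MG132. With vehicle it ran from 10.01 to 10.06 in knockdown and 9.86 to 9.88 in control cells. This mean was higher in the knockdown line, like Myl9 and Tpm2, and lower with MG132 in both lines, like the 6 members that fell. The markers did not move together between the lines, and their median log2 difference was 0.09 with MG132 and -0.03 with vehicle. Col1a2 was lower in the knockdown line in both treatments (11.79 in knockdown and 12.18 in control cells with vehicle). Of these 9 markers 4 were higher and 1 lower with MG132 (44.4% and 11.1%, beside 17.7% and 20.3% of all genes). With vehicle 4 were higher and 2 lower (44.4% and 22.2%, beside 21.5% and 17.9%). The same shares of all genes stand beside the counts of the other cell types' markers between the lines. The smooth muscle myosin Myh11, named after its values had been seen, had group means between 7.51 and 7.63, below the median of all values, and was called in 1 of 5 comparisons, higher with MG132 in knockdown cells (0.12 ± 0.04, limma adjusted p = 0.0409). Of 8 pericyte markers 2 were higher and 0 lower in the knockdown line with MG132, and 1 was higher and 1 lower with vehicle. Their mean level per array ran from 8.04 to 8.12 in knockdown and 7.98 to 8.05 in control cells with MG132, and from 8.20 to 8.23 in knockdown and 8.13 to 8.24 in control cells with vehicle. Of 10 skeletal muscle markers 0 were called between the lines with MG132 and 1 was higher with vehicle. Of 8 cardiac markers 1 was higher and 2 lower with MG132, and 2 were lower with vehicle. The mean level of the cardiac markers ran from 7.85 to 7.93 in knockdown and 7.98 to 8.18 in control cells with MG132. With vehicle it ran from 7.78 to 8.01 in knockdown and 8.11 to 8.19 in control cells. This mean was lower in the knockdown line, like Tagln, while the median log2 difference of the cardiac markers was 0.01 with MG132 and -0.08 with vehicle. The adipocyte markers (7 measured) ran from 6.84 to 6.89 in knockdown and 6.97 to 7.10 in control cells with MG132, without overlap, and from 6.70 to 6.90 in knockdown and 6.84 to 6.98 in control cells with vehicle. Of the 8 markers each of endothelium, macrophages and epithelium, at most 2 were called between the lines in either treatment, and their mean levels overlapped between the lines in both. The part of all these markers in the member differences was not tested. No detection calls were used, so no marker is called absent.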

How the data were processed

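Total RNA of 16 plates was hybridised to 1 array each. The deposited log2 values are probe set intensities with 2 decimals. Per the submitters' processing notes the tools were RMA and Partek, of which no version or setting is known here. Of 35556 probe sets, 21789 carried 1 gene symbol in the platform annotation, and the probe set with the highest mean was kept for each of 19938 genes. limma 3.58.1 in R 4.3.3 fitted 1 mean per group to all arrays (two-sided tests, 12 residual degrees of freedom and a prior of 4.12). No genes were filtered, and the fit was tested on simulated data. Single genes were also compared by exact permutation tests. Groups and replicate numbers come from the sample titles. The labels do not say that plates were separate cultures, so p-values measure the spread between these arrays, which may be technical. Members and gene lists were chosen with earlier results of these data known. The named genes are all members, Atf5, up to 4 genes of each list with the smallest p in a comparison, and the 5 nearest patterns of Acta2, Tagln and Cnn1. The alternatives were another quantile normalization, median centring, a mean of at least 6, averaged probe sets, only the groups compared, a trended robust prior, array weights, a block for the titles' replicate numbers, and fits with each array left out in turn. Leaving out 4 arrays low on the gradient inside the groups was added after seeing the data. Replicate numbers were not taken to pair the arrays, because the labels do not say that they do. Of 24 same-numbered pairs 10 had a correlation of their deviations over 0.1 (range -0.50 to 0.40). Pairs with different numbers ranged from -0.51 to 0.60. Python 3.11.15 and matplotlib 3.10.9 drew the figures and searched the RefSeq promoter windows.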

Additional observations from a re-analysis of the deposited data

Results flagged for a closer look

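Srf, Tpm1 and Myl9 had MG132 responses that differed between the lines by the test of the difference itself. The difference, knockdown minus control, was 0.35 for Srf, 0.17 for Tpm1 and 0.29 for Myl9 on the log2 scale. In all 3 genes MG132 lowered the level in both lines, by less in knockdown cells. The Myl9 call was lost without either set of 4 arrays low on the gradient (limma adjusted p 0.0651 and 0.0638).

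One array stood apart from the other 3 of its group in 2 of the 40 gene and group combinations, and about 1 in 20 would be marked by chance. Actg2 read 7.66 on knockdown vehicle array 1, against 7.37 to 7.40 on the other 3. That array was second lowest on the gradient inside the groups and also had the highest Lmod1 (7.92) and Myocd (6.57) of its group. All 3 genes followed that gradient over the 16 arrays (Pearson's r -0.77 for Actg2, -0.86 for Lmod1 and -0.80 for Myocd). Tpm1 read 13.13 on knockdown MG132 array 1, against 13.18 to 13.19 on the others.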

How the results depend on the processing

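Over 26 alternatives, 1290 values of the 50 member results were compared: 1205 kept direction and side of the threshold, 46 lost and 14 gained a call, and 25 turned sign, none of them called in the fit reported. The 1205 include 26 values of Actg2 in the line difference with MG132. That difference was 0 in the fit reported, so these values kept the side of the threshold but had no direction to keep. Lmod1 turned to -0.0604 (second quantile normalization) and -0.05 (median centring) in the knockdown response to MG132, and to 0.0127 and 0.01 in the line difference with vehicle. In that line difference it was 0.0117 without 4 arrays low on the gradient when the fifth lowest took the place of the fourth. With array weights Myocd turned to 0.0142 in the control response and Actg2 to 0.0281 in the knockdown response. Without the 4 lowest arrays Actg2 was 0.0267 and Cnn1 0.00667 in the knockdown response, and without the other set of 4 Actg2 was 0.045 there and Myocd 0.0317 in the control response. With single arrays left out, these results ran from -0.0433 to 0.0933 and -0.0958 to 0.0408 for Lmod1, -0.0467 to 0.03 for Myocd, -0.0517 to 0.045 for Actg2 and -0.0767 to 0.0167 for Cnn1. The cause was not tested.

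In the line difference with vehicle 6 members were called, 3 without the second set of 4 arrays, and 4 to 7 with single arrays left out. Of all 19938 genes 7848 (39.4%) were called in the fit reported and 7303 to 8143 with single arrays left out. The second set took out control vehicle 1 and control vehicle 4, so few control arrays remained for this comparison. The count of all genes called without that set is not given here, so the fall to 3 members has no matching background. Median centring moved the split of all genes called: 1833 of 7628 were higher with MG132 in knockdown cells and 2150 of 6774 in control cells, against 3276 of 8124 and 3341 of 7137 as reported. The replicate block gave 6 members called in the knockdown and 7 in the control response. It gave 6 and 5 in the line differences with MG132 and with vehicle, and 3 in the difference of the responses. In the same order the shares of all genes called in the fit reported, without the block, were 40.7%, 35.8%, 38.1%, 39.4% and 14.6%. The shares under the block are not given here, so these member counts have no matching background. The block ended 2 Acta2 calls (limma adjusted p 0.0711 for the response of knockdown cells, 0.0508 between the lines with vehicle). It gave 1 call for Myocd (limma adjusted p 0.0387). The labels do not say whether same-numbered arrays belong together, and 7 of 16 correlated best with their own number. Control arrays 1 and 4 lay lower on the gradient than 2 and 3 in both treatments. Knockdown arrays 1 and 2 lay lower than 3 and 4 in both. Whether the numbers mark pairs was not tested. The number of arrays limits the precision.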
